A study of Drosophila melanogaster with 12 samples.

Results

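Cuticle protein genes were examined in heads of Drosophila melanogaster. The members were all genes whose symbol starts with Cpr, Lcp or Ccp84, together with Acp1, CG7203 and CG7214. This rule gave 95 of the 13759 genes in the deposited table, of which 70 are Cpr genes, 15 Lcp genes, 7 Ccp84 genes and 3 the genes added by name. Reads were found for 63 of the 95, and 32 were listed at 0 in every library. The 18 members whose mean reached 10 normalized reads per library were tested, among 6552 such genes. They are 15 Cpr genes and the 3 genes added by name, and no Lcp or Ccp84 gene reached that mean. The gene Cpr, which encodes the NADPH reductase of cytochrome P450 enzymes and is no cuticle protein gene, was set apart.

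All flies had the Canton-S background and had spent 18 h on sucrose, at concentrations that the labels give as 0, 25, 50 or 100 percent. The 8 libraries labelled cabut RNAi (2 at each concentration, below RNAi-labelled libraries) came from flies with Tim-gal4 and UAS-cbt RNAi, in which a timeless driver switches the transgene on in cells that express that clock gene. The 4 control libraries (1 at each concentration) are given as +/cbtE1-UAS-cbt RNAi, that is, with the transgene and no driver. The sources used here give no age, sex or number of pooled heads. They do not say that libraries came from separate flies or cultures either, so p-values measure only how far these libraries differ, which may be technical.

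The fly exoskeleton is built of chitin fibres held in a matrix of cuticle proteins that epidermal cells secrete. The CPR family, to which the Cpr, Lcp and Ccp84 genes belong, carries the Rebers and Riddiford motif, a stretch that binds chitin. Lcp genes are named for larval cuticle, Ccp84 genes for their cluster, and Acp1 for adult cuticle. In the head the same class of protein builds the capsule, the bristles and the corneal lenses of the eye, and Cpr72Ec and Cpr66D encode lens proteins beside the non-CPR lens proteins Crys (drosocrystallin) and retinin.

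Between 511487 and 1859280 reads were recovered per library, and each value is a read number multiplied by its library's scaling factor, called normalized reads here. The target of the RNAi was not lower where the label names it: cbt ranged over 102 to 202 normalized reads in the 8 RNAi-labelled libraries and over 93.5 to 139 in the 4 controls. The control at 100 percent sucrose, which is also the shallowest library, stood apart. It had 1101 normalized reads of Cyp4g1, the oenocyte enzyme of hydrocarbon synthesis, against at most 17.3 in the other 11 libraries. It also held 44.8 of the midgut protease Jon65Aiii and 11.2 of the eggshell gene Cp15. Results that turn on it are given with and without it.

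Members together took between 0.127% and 0.662% of all values in the RNAi-labelled libraries (median 0.266%), against 0.174% to 0.1999% in the controls. The width of the first range came from Acp1, CG7203 and CG7214, which took 0.0158% to 0.512% in the RNAi-labelled libraries and 0.0146% to 0.0172% in the controls. Without these 3 genes the share was 0.111% to 0.150% in the RNAi-labelled libraries, below the 0.157% to 0.184% of the controls. That order rested on Cpr72Ec: with it left out as well, a choice made after seeing the data, the share was 0.103% to 0.144% in the RNAi-labelled libraries and 0.0851% to 0.0960% in the controls. In whole heads, fewer cells of a type and less RNA per cell cannot be told apart.

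**Figure D1:**
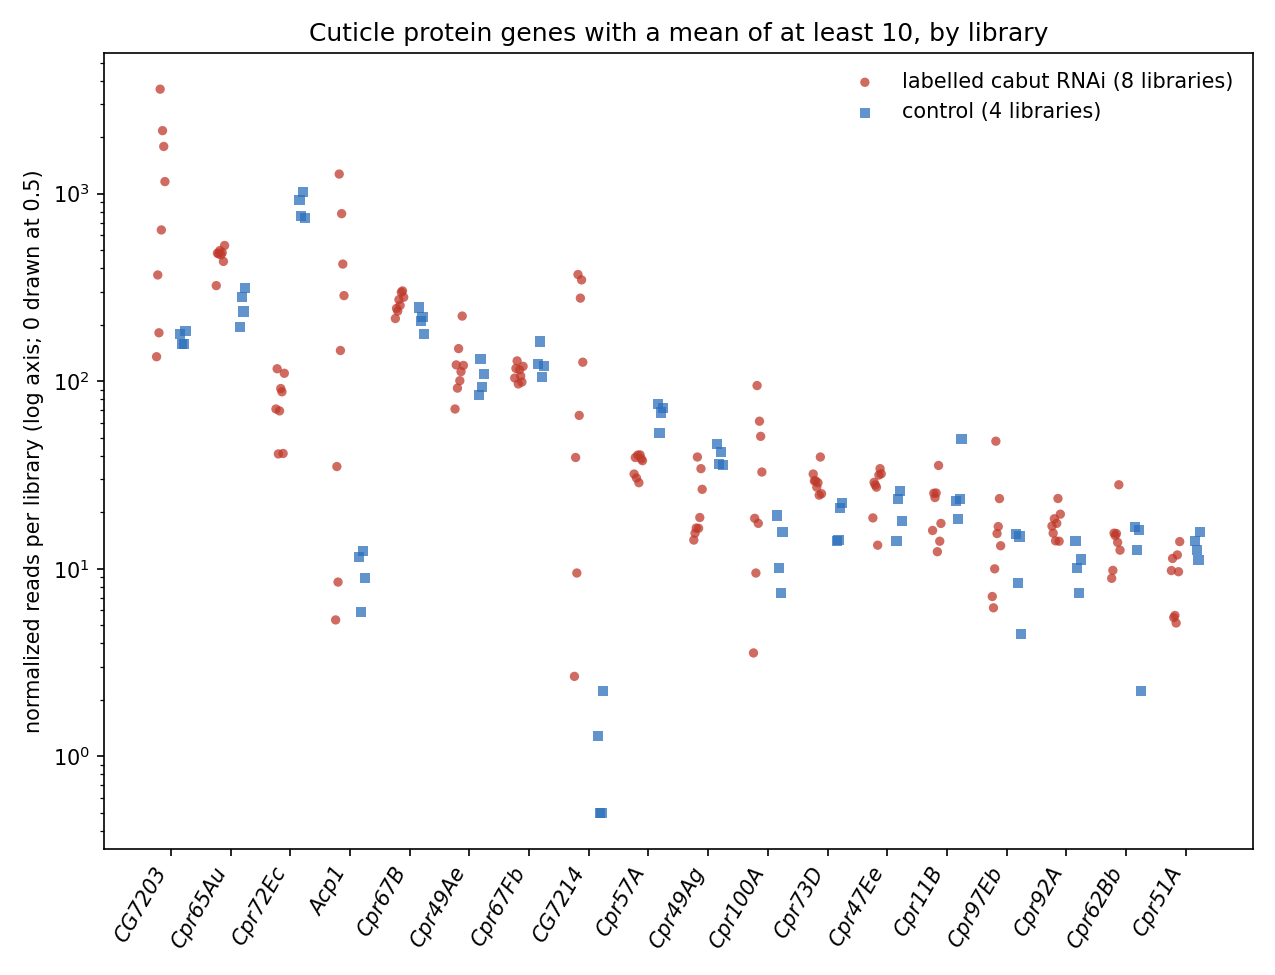
Normalized reads (log axis, 0 drawn at 0.5) of the 18 cuticle protein genes tested, 1 point per library, with the 8 RNAi-labelled libraries left of the 4 controls. Acp1, CG7203 and CG7214 spread widely in the RNAi-labelled libraries and not in the controls, and Cpr72Ec lies lower in all 8 than in any control.

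Between the labels, 5 of the 18 members were higher in the RNAi-labelled libraries and 3 were lower, with concentration in the model (limma on log2(value + 1), Benjamini-Hochberg adjustment over 6552 genes, threshold 0.05). Over all genes tested 15.5% were called, 6.78% as higher and 8.71% as lower. The members higher were CG7214, Acp1, CG7203, Cpr65Au and Cpr73D, and those lower were Cpr72Ec, Cpr57A and Cpr49Ag. Acp1, CG7203 and CG7214 had been added by name with earlier results of these data known, so their place among the 5 is no independent result, and of the 15 Cpr genes tested 2 were higher and 3 lower. The median log2 fold change was 0.43 over the members and 0.01 over all genes. The median size of the change, sign ignored, was 0.69 over the members and 0.20 over all genes. Both medians of the members include Acp1, CG7203 and CG7214, which raise them. For 5 of 18 members (CG7214, Cpr65Au, Cpr73D, Cpr72Ec and Cpr57A) no RNAi-labelled library overlapped a control, which held for 8.17% of all genes. CG7214 and Acp1 reached the minimum mean of 10 only through the RNAi-labelled libraries, where they were high, so their difference is partly set by that filter. The filter weighs these 8 libraries more than the 4 controls.

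**Figure D2:**
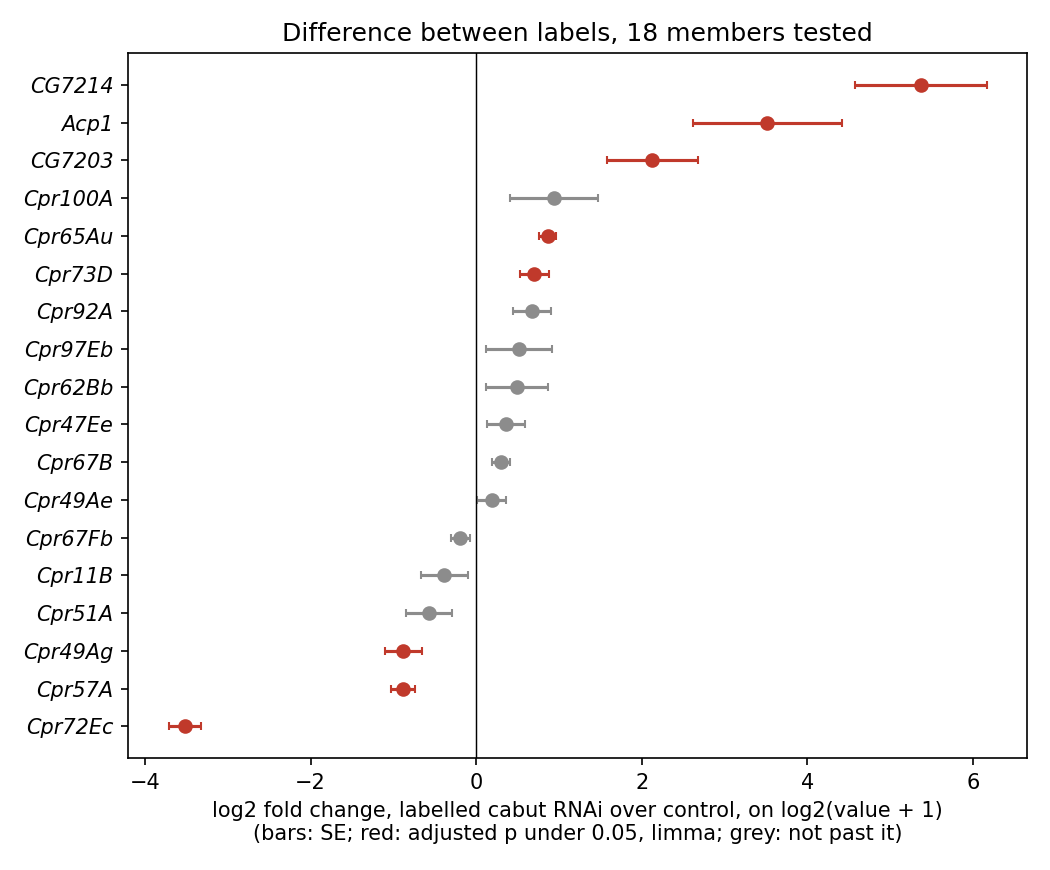
Log2 fold change of the 18 members, RNAi-labelled libraries over controls on log2(value + 1), with SE bars and red points where the limma adjusted p is under 0.05. CG7214 is the farthest to the right at 5.37 and Cpr72Ec the farthest to the left at -3.52.

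The corneal lens gene Cpr72Ec had the lowest p of all members. At 0 percent sucrose it had 71.1 and 117 normalized reads in the RNAi-labelled libraries, against 928 in the control. At 25 percent it had 40.9 and 69.4 in the RNAi-labelled libraries against 760 in the control, at 50 percent 91.4 and 87.8 against 1018 in the control, and at 100 percent 41.2 and 110 against 741 in the control. Every RNAi-labelled library was thus far below every control, and the values followed no order with sucrose in either group. The log2 fold change was -3.52 ± 0.20 (SE), 11.5-fold lower (limma adjusted p = 2.10e-10), and by concentration it lay between -3.81 and -3.34.

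Its neighbour Cpr72Eb lies 240 bases away on chromosome 3L (Cpr72Eb at 16358097 to 16358750, Cpr72Ec at 16358991 to 16360426, build dm3). Cpr72Eb stayed below the minimum for testing, with a mean of 7.35. It had 0 to 2.06 normalized reads in the 8 RNAi-labelled libraries, against 11.5, 37.8, 18.6 and 15.7 in the controls at 0, 25, 50 and 100 percent. All 8 were below all controls, as for Cpr72Ec. Only 83 reads of it were recovered in all, and no test was made.

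The other lens genes that were tested did not share this pattern. Cpr66D was also below the minimum, at 2.06 to 7.11 normalized reads in the RNAi-labelled libraries and 2.24 to 2.56 in the controls. Only 52 reads of Cpr66D were recovered in all, too few to tell. Crys, with 40.0 to 98.99 in the RNAi-labelled libraries against 17.9 to 44.5 in the controls, rose by 1.29 ± 0.22 on the log2 scale (limma adjusted p = 3.24e-04). Retinin, the protein of the lens surface, had 2076 to 4530 in the RNAi-labelled libraries and 3970 to 4333 in the controls, with a log2 fold change of -0.43 ± 0.15 that missed the threshold (limma adjusted p = 0.0563). Of the 4 lens genes listed, 3 were tested, 1 being higher and 1 lower, where 15.5% of all genes tested were called. The 8 photoreceptor markers summed to 21102 to 24394 in the RNAi-labelled libraries and 20343 to 25573 in the controls, ranges that overlap, and most of that sum was ninaE. Singly, Rh5 (0.73) and ninaC (0.42) were higher in the RNAi-labelled libraries and Rh4 (-0.36) and Rh3 (-0.30) lower, on the log2 scale. Marker sums, RNAi-labelled against control, were 868 to 1079 against 572 to 750 for glia and 118 to 177 against 171 to 228 for neurons. They were 24399 to 57630 against 51545 to 73528 for fat body and 10549 to 15245 against 11760.5 to 15361 for hemocytes. Called higher between labels were 2 of 4 glia, 3 of 4 muscle and 1 of 3 hemocyte markers tested. Of 6 fat body markers 2 were higher and 3 lower, and 2 of 2 tested for neurons were lower. The part of these cell types in the lens genes' differences was not tested.

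Cpr57A and Cpr49Ag, both CPR genes on chromosome 2R, were lower in the RNAi-labelled libraries by smaller amounts. For Cpr57A the lowest, median and highest values were 28.7, 38.1 and 40.5 normalized reads in the 8 RNAi-labelled libraries, against 75.6, 52.9, 68.1 and 71.6 in the controls from 0 to 100 percent sucrose. The 2 groups did not overlap, and the log2 fold change was -0.88 ± 0.14 (limma adjusted p = 1.83e-04). Cpr49Ag had a lowest, median and highest value of 14.2, 17.6 and 39.4 in the RNAi-labelled libraries, against 46.1, 36.1, 42.1 and 35.8 in the controls. Here the second library at 25 percent reached the controls, and the log2 fold change was also -0.88 ± 0.23 (limma adjusted p = 0.0113). That call was lost without the control at 0 percent (adjusted p = 0.102) or at 50 percent (adjusted p = 0.0774). The tested member before Cpr49Ag on the chromosome is Cpr49Ae, with the untested Cpr49Af between them. Cpr49Ae was at 71.1 to 223 in the RNAi-labelled libraries and 84.5 to 131 in the controls (log2 fold change 0.19 ± 0.17, limma adjusted p = 0.540).

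Cpr65Au and Cpr73D, CPR genes on chromosome 3L, were higher in the RNAi-labelled libraries. Cpr65Au averaged 463 ± 62.1 normalized reads (SD, n = 8) in the RNAi-labelled libraries, with a lowest, median and highest value of 323, 480 and 529. The 4 controls averaged 256 ± 52.0 (SD, n = 4), at 195, 281, 235 and 313 from 0 to 100 percent sucrose. The lowest RNAi-labelled library lay just above the highest control, and the log2 fold change was 0.86 ± 0.10 (limma adjusted p = 7.93e-06). Cpr73D was at 24.7, 29.1 and 39.4 (lowest, median, highest) in the RNAi-labelled libraries, against 14.1, 14.3, 21.1 and 22.4 in the controls. It did not overlap either, with a log2 fold change of 0.70 ± 0.18 (limma adjusted p = 0.00966). The call on Cpr73D was lost without the control at 0 percent (adjusted p = 0.0606) or at 25 percent (adjusted p = 0.0502), and in DESeq2 (adjusted p = 0.0520).

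Acp1, CG7214 and CG7203 had the widest spread of the members. Acp1 had 5.33 and 35.1 normalized reads in the RNAi-labelled libraries at 0 percent sucrose, 8.49 and 1273 at 25 percent, 146 and 783 at 50 percent and 421 and 286 at 100 percent. The controls had 11.5, 5.87, 12.4 and 8.95 from 0 to 100 percent. The first RNAi-labelled libraries at 0 and at 25 percent were thus at the level of the controls, the second at 0 percent was above them and the other 5 far above, with a 239-fold distance between the highest and the lowest of the 8. Over labels the log2 fold change was 3.52 ± 0.90 (limma adjusted p = 0.0103).

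CG7203 had 135 and 369 normalized reads in the RNAi-labelled libraries at 0 percent sucrose, 181 and 3609 at 25 percent, 641 and 2169 at 50 percent and 1786 and 1160 at 100 percent. Its controls were close together at 179, 158, 159 and 186. The libraries low for Acp1 were low for CG7203 too, and the order of the 8 RNAi-labelled libraries from highest to lowest was the same for both genes. The log2 fold change over labels was 2.13 ± 0.55 (limma adjusted p = 0.0106). Without the control at 50 percent the adjusted p was 0.0739 for CG7203 and 0.0689 for Acp1, and without the control at 100 percent 0.119 for CG7203 and 0.126 for Acp1, so neither call held in those fits.

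CG7214 had 2.67 and 39.2 normalized reads in the RNAi-labelled libraries at 0 percent sucrose, 9.48 and 371 at 25 percent, 65.7 and 277 at 50 percent and 347 and 126 at 100 percent, against 1.28, 0, 0 and 2.24 in the controls. All RNAi-labelled libraries were above all controls, though by little in the first at 0 and at 25 percent. In reads, 1415 came from the 8 RNAi-labelled libraries and 2 from the 4 controls, a ratio of 247 per total reads with a 95% counting interval of 68.3 to 2044, which covers counting error only. At 25 percent the RNAi-labelled libraries were at least 3.77-fold and at least 147-fold higher, and at 50 percent at least 17.7-fold and at least 74.6-fold higher, than the floor of 3 counts in that control library. The fitted log2 fold change of 5.37 ± 0.79 (limma adjusted p = 6.22e-05) depends on the pseudocount and is no bound. CG7214 kept its call in all 12 fits that left out 1 library, but all of them shared the filter that it passed only through the RNAi-labelled libraries.

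**Figure D3:**
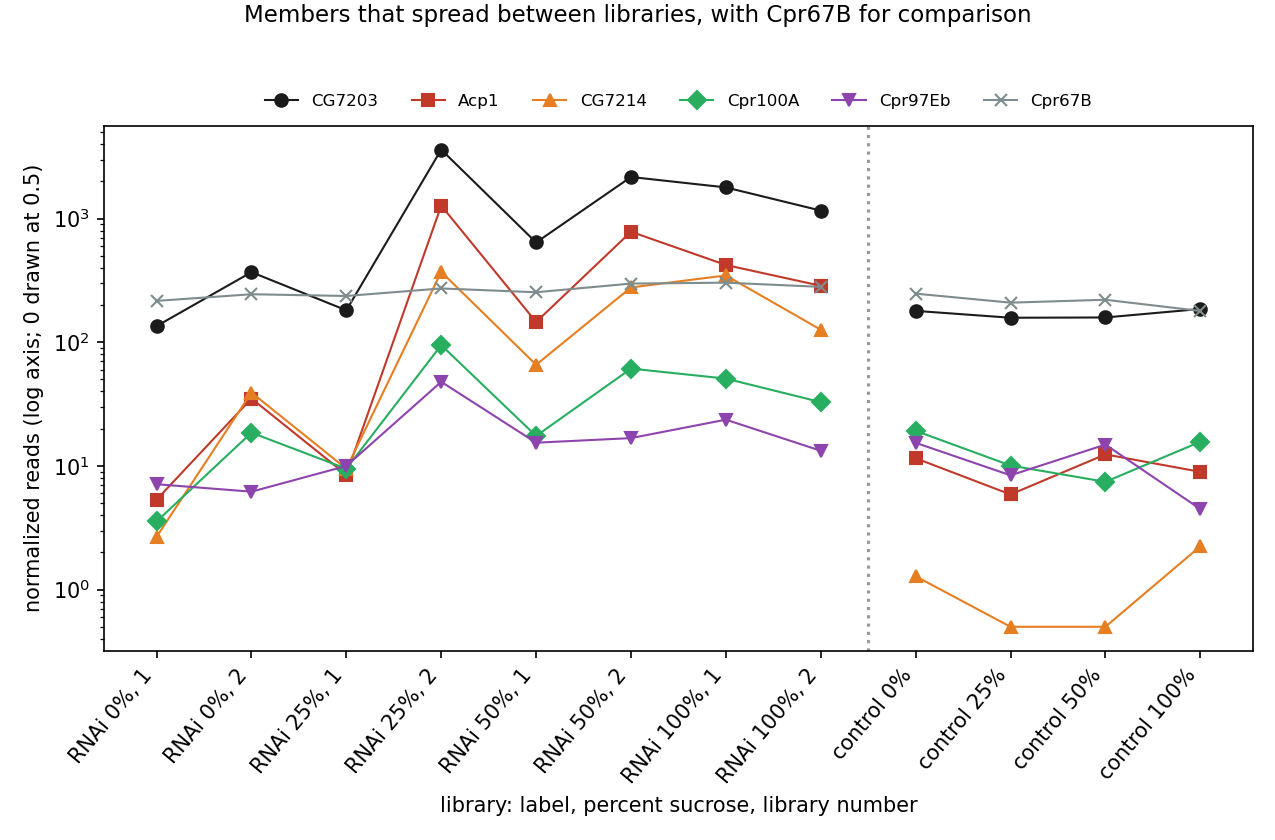
Normalized reads (log axis, 0 drawn at 0.5) in each library, those labelled cabut RNAi left of the dotted line and controls right of it, for the 5 members that differed most between libraries and for Cpr67B. The 5 lines rise and fall largely together, highest in the second library at 25 percent for all of them, while Cpr67B stays between 216 and 303 on the left and 179 and 247 on the right.

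These 3 genes are neighbours on chromosome 2L (build dm3): Acp1 lies at 7740552 to 7741542, CG7214 at 7743677 to 7744841 and CG7203 at 7752168 to 7753156. CG31904, at 7734411 to 7738795, ends 1756 bases before Acp1 and is no member. It had 7.11 and 28.9 normalized reads in the RNAi-labelled libraries at 0 percent, 7.99 and 1314 at 25 percent, 177 and 784 at 50 percent and 429 and 260 at 100 percent, against 15.4, 4.20, 9.91 and 15.7 in the controls. The 4 genes with this pattern span 18746 bases, and the gene between CG7214 and CG7203, CG7211, was listed at 0 in every library. Beyond the span the pattern was not seen: CG13796, the next gene before CG31904, had 7.49 to 19.1 in the RNAi-labelled libraries and 0 to 8.96 in the controls, CG13795 before it had 17.5 to 51.0 in the RNAi-labelled libraries and 28.5 to 32.0 in the controls, and CG7196 after CG7203 was at or near 0. The sources used here do not state whether counting used strand.

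**Figure D4:**
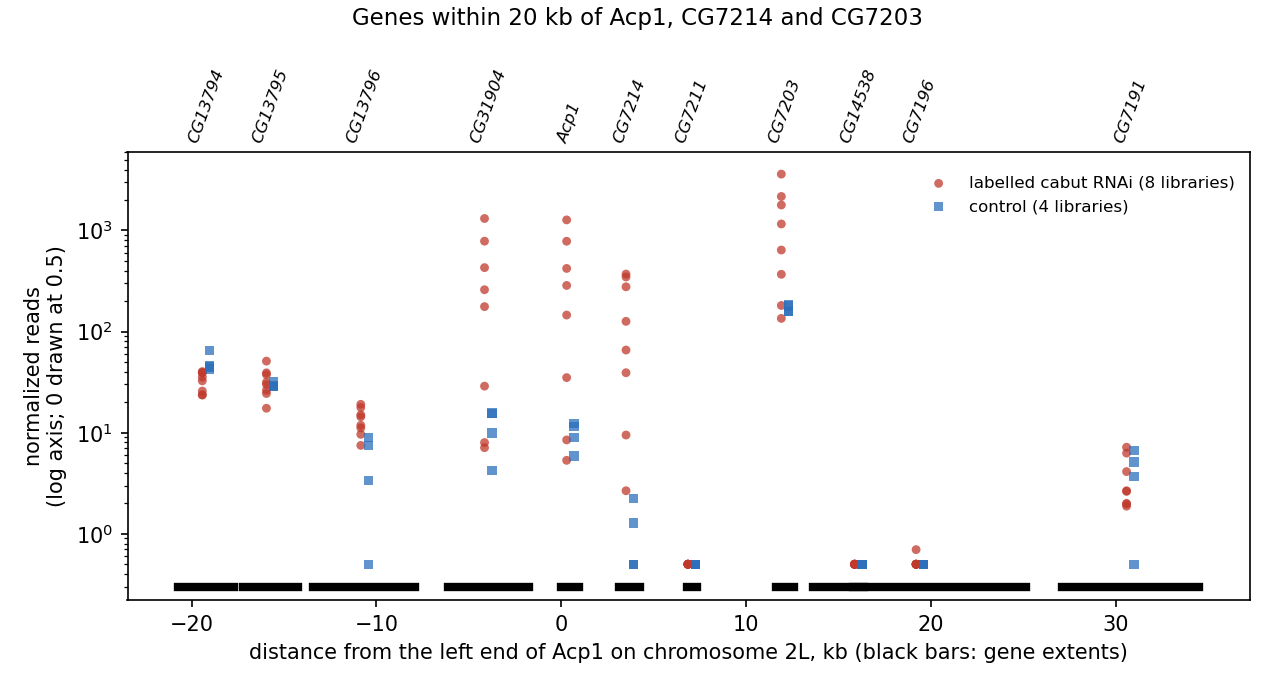
Normalized reads (log axis, 0 drawn at 0.5) of the genes within 20 kb of Acp1, CG7214 and CG7203, placed by distance in kb from the left end of Acp1, 1 point per library, RNAi-labelled libraries left of controls. CG31904, Acp1, CG7214 and CG7203 reach 371 to 3609 in RNAi-labelled libraries, and the genes outside these 4 do not show that spread.

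Because libraries 1 and 2 of a concentration share their labels, the difference within each pair was compared with that of all genes. The median absolute log2 difference within a pair was 0.37 for the members, 0.34 for the 15 Cpr genes tested and 0.24 for all 6552 genes. With a minimum mean of 50 it was 0.73 for the members and 0.16 for all genes. That minimum left 8 members, among them Acp1, CG7203 and CG7214, which were added by name. Acp1 and CG7214 passed it only through the RNAi-labelled libraries. The Cpr genes left had medians over the pairs of 0.17 (Cpr65Au), 0.19 (Cpr67B), 0.22 (Cpr67Fb), 0.73 (Cpr72Ec) and 0.73 (Cpr49Ae). A pair that differed by more than 1 on the log2 scale was found for 11 of 18 members, or 8 of the 15 Cpr genes, against 9.42% of all genes. At 25 percent, library 1 minus library 2 was -7.07 for Acp1, -5.15 for CG7214, -4.31 for CG7203, -3.19 for Cpr100A and -2.15 for Cpr97Eb. At 100 percent the sign turned, with 0.56 for Acp1, 1.45 for CG7214, 0.62 for CG7203, 0.62 for Cpr100A and 0.79 for Cpr97Eb. The second library was the higher one for 15 of 18 members at 0 percent, 13 at 25 percent, 14 at 50 percent and 6 at 100 percent.

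Ranked by the log2 range over the 8 RNAi-labelled libraries, Acp1 was at place 2 of 6552, CG7214 at 6, CG7203 at 15, Cpr100A at 19 and Cpr97Eb at 41. Acp1, CG7214 and CG7203 had been added by name, so their places only describe them, and Cpr100A and Cpr97Eb came in by their symbols. Cpr100A, a CPR gene on chromosome 3R, had 3.55 and 18.6 normalized reads in the RNAi-labelled libraries at 0 percent, 9.48 and 94.8 at 25 percent, 17.5 and 61.2 at 50 percent and 50.8 and 32.8 at 100 percent, against 19.2, 10.1, 7.43 and 15.7 in the controls. Its values thus lay on both sides of the controls (log2 fold change 0.94 ± 0.53, limma adjusted p = 0.274). Cpr97Eb, also on 3R, had 7.11 and 6.19 in the RNAi-labelled libraries at 0 percent, 9.98 and 47.9 at 25 percent, 15.4 and 16.8 at 50 percent and 23.7 and 13.3 at 100 percent, against 15.4, 8.39, 14.9 and 4.48 in the controls. Here only the second library at 25 percent was far from the rest.

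**Figure D5:**
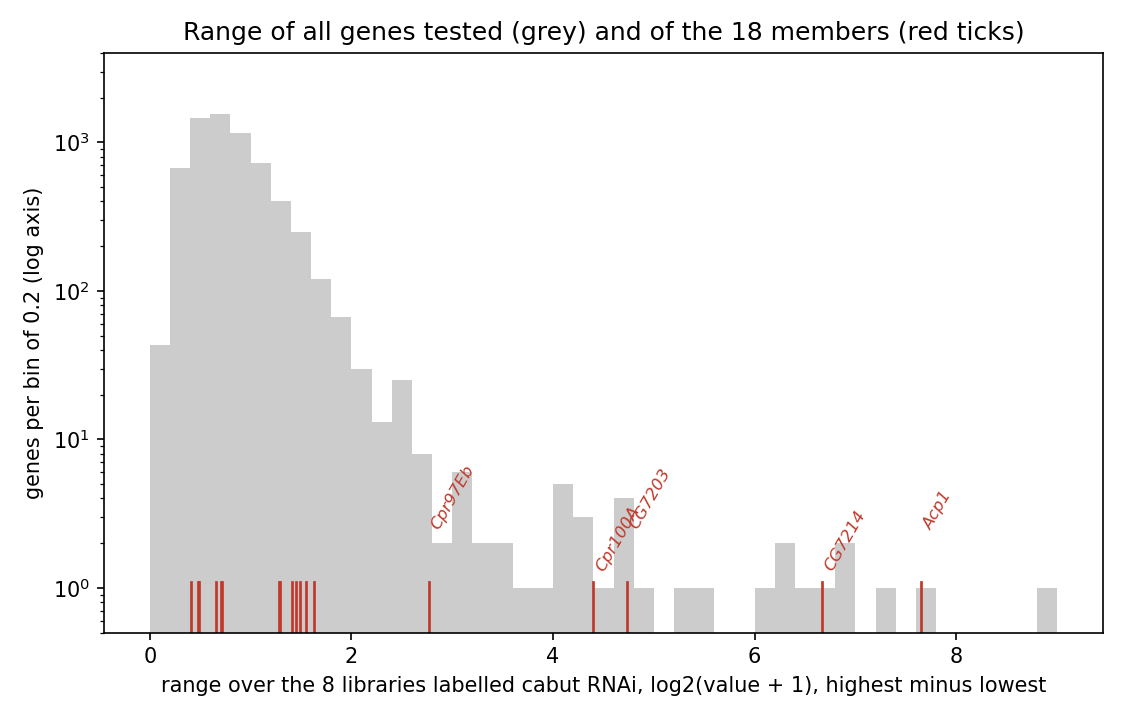
Number of genes (log axis) by log2 range over the 8 RNAi-labelled libraries, highest minus lowest, for 6552 genes in grey and with red ticks for the 18 members. Acp1, CG7214, CG7203, Cpr100A and Cpr97Eb lie in the right tail, at places 2, 6, 15, 19 and 41, and the other members among the bulk or its flank.

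The 3 libraries in which these 5 genes were highest were the second at 25 percent, the second at 50 percent and the first at 100 percent. Having been read from these 5 genes, they say nothing further of them. The same 3 were the highest for 2.55% of all genes tested. Among lists chosen for comparison they were the highest for 4 of 6 tested structural cuticle genes outside the family (Crys, retinin, Gasp and Vajk2), 3 of 4 muscle markers (Mhc, Prm and up), 1 of 12 chitin genes (serp) and 1 of 12 tanning genes (yellow-e). They were so for 0 of 8 photoreceptor, 0 of 7 hormone, 0 of 6 fat body, 0 of 4 glia, 0 of 3 hydrocarbon, 0 of 3 hemocyte and 0 of 2 neuron genes. The 4 muscle markers summed to 1540, 1398 and 1445 normalized reads in these 3 libraries and to 943 to 1401 in the other 5 labelled cabut RNAi, against 835 to 1000 in the controls. Their highest sum was 1.63 times their lowest in the RNAi-labelled libraries, where Acp1 differed 239-fold. The part of muscle content in the spread of the cuticle genes was not tested.

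Sucrose was tested as the mean of 25, 50 and 100 percent against 0 percent. With both labels in 1 model, 0 of 18 members passed the threshold by limma, edgeR or DESeq2, where limma called 2.15% of all genes, and 5 members had an unadjusted limma p under 0.05. The largest log2 fold changes were 2.52 for Acp1 (limma adjusted p = 0.286), 2.01 for CG7214 (0.376) and 1.51 for CG7203 (0.300). Cpr65Au, with the lowest adjusted p, changed by 0.36 ± 0.11 (0.139). The first RNAi-labelled library at 25 percent was the lowest of that label with sucrose for Acp1 and CG7203. Without it their log2 fold changes were 3.12 and 1.88, which is no independent result. Without the second RNAi-labelled library at 0 percent that of Cpr65Au was 0.54.

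Within the 8 RNAi-labelled libraries, again 0 of 18 members passed by limma, edgeR or DESeq2, against 1.97% of all genes by limma, and 8 had an unadjusted limma p under 0.05. With the replicate number as a block 1 member, Acp1, was called (limma adjusted p = 0.0382), though it is not known whether the numbers pair the samples. Acp1 averaged 486 ± 468 normalized reads (SD, n = 6) with sucrose, against 5.33 and 35.1 without. All libraries with sucrose but the first at 25 percent were above both without, and the log2 fold change was 3.96 ± 1.32 (limma adjusted p = 0.252). It was 3.32 ± 1.12 for CG7214 (0.262), 2.31 ± 0.82 for CG7203 (0.306), 1.91 ± 0.73 for Cpr100A (0.363) and 1.35 ± 0.45 for Cpr97Eb (0.243). The first library at 25 percent was the lowest with sucrose for all 5 genes. Without it the log2 fold changes were 5.14 for Acp1, 3.03 for CG7203, 1.71 for Cpr97Eb, 4.18 for CG7214 and 2.45 for Cpr100A. These 5 had been singled out by their range over the same 8 libraries, so that rise is no independent result. The fit also left 1 library at 25 percent.

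The difference between the labels in their sucrose response was called for 0 of 18 members by limma, edgeR or DESeq2, against 0.229% of all genes by limma, and 3 members had an unadjusted limma p under 0.05. The lowest adjusted p among them was 0.290, for Cpr62Bb, whose response was higher by 1.69 on the log2 scale where the label is cabut RNAi. That value was 0.94 (limma adjusted p = 0.623) without the control at 100 percent, which held 1 read of it. By concentration the label difference of Acp1 was 0.27, 3.999, 4.66 and 5.13 on the log2 scale from 0 to 100 percent, that of CG7203 0.31, 2.35, 2.89 and 2.95 and that of CG7214, which depends on the pseudocount, 2.41, 5.96, 7.09 and 6.02. Each of these rests on 1 control library, so its control spread was taken from the pairs.

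Of the members tested and not called between labels, 10 in all, Cpr92A and Cpr67B came nearest. Cpr92A had 14.0 to 23.7 normalized reads in the RNAi-labelled libraries and 7.43 to 14.1 in the controls (log2 fold change 0.67 ± 0.23, limma adjusted p = 0.0521), the highest control reaching the lowest of the 8. Cpr67B had 216 to 303 in the RNAi-labelled libraries and 179 to 247 in the controls (log2 fold change 0.30 ± 0.11, limma adjusted p = 0.0718). Both passed the threshold in some of the other fits, Cpr92A in 6 and Cpr67B in 3. Cpr67Fb varied least among the 8 RNAi-labelled libraries in relation to its mean, at 96.7 to 128, against 105 to 163 in the controls. Cpr47Ee had 13.3 to 34.2 in the RNAi-labelled libraries and 14.1 to 26.0 in the controls, and the X-linked Cpr11B had 12.3 to 35.5 in the RNAi-labelled libraries and 18.5 to 49.2 in the controls. The groups overlapped for each of these 5 genes. Cpr62Bb, at 8.89 to 28.03 in the RNAi-labelled libraries and 2.24 to 16.6 in the controls, and Cpr51A, at 5.13 to 14.0 in the RNAi-labelled libraries and 11.1 to 15.7 in the controls, were the members just above the minimum, with means of 13.9 and 10.5. Cpr51A overlaps CG30197, a gene with a mean of 437, so its reads are uncertain. Just below the minimum were Cpr62Bc with a mean of 8.09, Cpr72Eb, and Cpr60D with 6.73.

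Of the 77 members below the minimum, 45 had reads. Their summed values were 50.0 to 118 normalized reads in the RNAi-labelled libraries and 52.5 to 91.5 in the controls. The highest sum was in the second library at 25 percent, the next of that label being 71.9. The larval cuticle genes reached at most a mean of 6.68 (Lcp65Ag2), and the Ccp84 genes at most 1.72 (Ccp84Ab). Values at these levels rest on few reads, and apart from Cpr72Eb no difference between labels was read from them.

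Genes that work with cuticle proteins were taken from lists, here and in the next paragraph, chosen with earlier results of these data known. Between labels, 6.78% of all genes tested were called higher and 8.71% lower. Of 6 tested structural cuticle genes outside the family 2 were higher between labels and 0 lower, Crys and Vajk2 (1.26 ± 0.39, limma adjusted p = 0.0352, lost in 5 of 12 fits that left out 1 library and in 5 of 11 other settings, edgeR and DESeq2 among them). Vajk2 had 96.7 normalized reads in the second RNAi-labelled library at 25 percent and 7.73 to 43.4 in the other 7, against 6.71 to 10.1 in the controls. Of 12 tested genes of chitin synthesis and turnover 0 were higher and 6 lower. They were 5 imaginal disc growth factors, which resemble chitinases, and the chitinase gene Cht6. Idgf5 had 35.9 to 58.8 in the RNAi-labelled libraries against 91.7 to 114 in the controls, without overlap (log2 fold change -1.18 ± 0.13, limma adjusted p = 3.58e-06). The others were Idgf6 (-0.54), Idgf3 (-0.51), Idgf2 (-0.43) and Idgf4 (-0.40) and Cht6 (-0.90). Cht6 overlapped between labels, at 705 to 2435 in the RNAi-labelled libraries and 1612 to 3254 in the controls. Its call between labels was lost in limma with robust estimation (adjusted p = 0.0521). With sucrose, within the RNAi-labelled libraries, Cht6 rose by 0.88 ± 0.15 (limma adjusted p = 0.00706), a call lost without either library at 0 percent (adjusted p = 0.174 and 0.0631), with no filter (0.227) and in limma without trend (0.143).

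Among 12 tested genes of tanning and pigment 2 were higher, ebony (e, 0.52 ± 0.13, limma adjusted p = 0.00748) and yellow-h (0.59 ± 0.19, 0.0385), and 1 lower, yellow-d (-0.61 ± 0.17, 0.0152). The call on yellow-h was lost in 8 of the 12 fits that left out 1 library and in 3 of 11 other settings, and those on e and yellow-d in 2 each. Of 7 tested hormone and moulting regulators the nuclear receptor Hr3 had the lowest limma adjusted p, 0.263, which missed the threshold. In the list of hydrocarbon synthesis 3 were tested and Cyp4g1 was lower (-2.79 ± 0.70, limma adjusted p = 0.00861), a difference that was -1.43 (limma adjusted p = 0.0760) without the control at 100 percent. The reductase gene Cpr, which is no member, had 117 to 187 in the RNAi-labelled libraries and 102 to 132 in the controls (log2 fold change 0.32 ± 0.10, limma adjusted p = 0.0428), a call lost in 7 of those 12 fits.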

How the data were processed

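The 12 libraries held poly(A) RNA of fly heads, fragmented before selection so that reads mark 3′ ends, per the labels' protocols. Bowtie, TopHat and build dm3 are known from the submitters' processing notes, which give no versions. How reads were counted and scaled, and whether by strand, is not given in the sources used here. The authors deposited a normalized signal per transcript: within a library all values were whole multiples of a single step (100% within a tolerance of 0.01), so whole reads were recovered by division, 511487 to 1859280 per library.

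Transcripts were joined to genes by CG number, taking the row with the highest mean. Of 14009 CG or CR numbers, 13536 had a symbol in RefSeq's gene table. Printed coordinates count from 1. Genes with a mean of at least 10 were tested with limma 3.58.1 (trend, R 4.3.3) on log2(value + 1), which understates changes of low genes, and called at an adjusted p under 0.05. Labels and sucrose were fitted over 12 libraries; the difference of responses used 8 group means. Simulated counts were also run through the fit between labels. Their spread followed the trend over all genes, so they do not bear on genes that spread far more, such as Acp1.

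Every member tested was named, with the 3 highest below the minimum. For each list except the cell markers, the genes called between labels were named, or else the gene with the lowest p. Label calls were named for photoreceptor markers and only counted for the other cell markers tested. The members and lists (other structural cuticle proteins, lens, chitin, tanning, hormone, hydrocarbons and cell markers) were chosen with earlier results of these data known. Alternatives were other pseudocounts, filters and scalings, limma settings, the recovered reads in edgeR 4.0.16 or DESeq2 1.42.0, the replicate block, summed transcripts, and leaving out each library. Intervals and floors cover counting error only.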

Additional observations from a re-analysis of the deposited data

Results flagged for a closer look

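Among the 18 members tested, 36 groups of values (8 libraries labelled cabut RNAi or 4 controls) were searched for a single library far from the others. Chance gives this in about 1 group in 20 where values are independent and normally distributed. These groups span all concentrations and share their libraries, so that rate is only a rough guide. Such a library was found in 4 groups. Cpr65Au was lowest in the first of the pair labelled cabut RNAi at 0 percent sucrose, at 323 normalized reads, the nearest of that label being 435. Cpr97Eb was highest in the second of the pair labelled cabut RNAi at 25 percent, at 47.9, with 23.7 next. Cpr62Bb was highest in the first of the pair labelled cabut RNAi at 100 percent, at 28.03, with 15.5 next. Cpr11B was highest in the control at 100 percent, at 49.2, with 23.5 next in the controls. What set these libraries apart was not tested.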

How the results depend on the processing

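Between labels 8 members were called. The count was 5 (4 higher, 1 lower) with a minimum mean of 50, where 8 members remain for testing, 5 to 9 when 1 library was left out, and 7 to 9 in the other fits. Cpr72Ec, Cpr65Au, CG7214 and Cpr57A kept their calls in every fit that tested them. For CG7214 this is no independent result: it was added by name and passed the minimum mean only through the libraries labelled cabut RNAi. Acp1 and CG7203 lost theirs without the control at 50 or at 100 percent sucrose and in limma without trend or with robust estimation; the cause was not tested. Without the control at 100 percent the log2 fold change turned to 0.0190 for Cpr11B and to -0.22 for Cpr62Bb, neither of them called; over all fits with 1 library left out it ran from -0.64 to 0.0190 and from -0.22 to 0.91.

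Leaving out 1 library gave 0 to 2 members called for sucrose, 0 to 5 for sucrose within the libraries labelled cabut RNAi and 0 for the difference of responses. Library numbers showed no clear pairing of the samples: deviations of same-numbered libraries correlated between -0.11 and 0.14. Such weak correlations over all genes cannot show that there was no pairing. With the replicate number as a block 8 members were called between labels and 1, Acp1 (limma adjusted p = 0.0382), for sucrose within the libraries labelled cabut RNAi, where the calls over all genes were 160 against 129. The median difference within pairs, 0.37, was 0.73 with a minimum mean of 50 (0.16 over all genes, against 0.24) and 0.33 to 0.46 with 1 library left out. Acp1, CG7203 and CG7214, added by name, are among the 8 members left at that minimum. With no filter the difference of responses was called higher for 95 and lower for 220 genes, against 10 and 5. Depth limits the 45 members with reads below the minimum, and 1 control per concentration limits every difference at a single concentration.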

Other observations

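Other genes with the library pattern of Acp1 were picked after their values were seen. Among the 50 genes with the widest log2 range over the 8 libraries labelled cabut RNAi, Vajk3, at place 22, and Vajk2, at place 29, belong to the structural cuticle genes outside the family. CG8736 had 0.889 and 5.67 normalized reads in libraries labelled cabut RNAi at 0 percent sucrose, 0.998 and 230 at 25 percent, 26.7 and 175 at 50 percent and 77.1 and 57.9 at 100 percent, against 24.3, 4.20, 8.67 and 6.71 in the controls. CG11458, at place 24, had 108 and 253, 238 and 1970, 293 and 877, and 994 and 868 in the same libraries, against 143, 73.8, 109 and 103 in the controls. In both genes the second library at 25 percent was the highest and the first at 0 percent the lowest of that label.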
